A study of Mus musculus with 37 samples.

Results

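Late 2-cell mouse embryos grown from Bap1-deficient eggs were compared with late 2-cell embryos from eggs that kept the gene. The comparison uses 5 of the 37 RNA-seq libraries of the series, chosen by the stage and genotype in the sample titles and by nothing measured. The 2 control libraries have the genotype Bap1flox/flox x B6, with the floxed allele and no recombinase. The 3 maternal knockout libraries have the genotype Gdf9-iCre, Bap1flox/flox x B6. In these mothers the Gdf9 promoter, active in growing oocytes, drives iCre, a Cre recombinase with codons adapted to mammals, which deletes Bap1 in the oocyte. Sperm was wild type in both groups, so every embryo received 1 intact paternal Bap1 allele. The egg's supply of product, the maternal allele and the iCre transgene of the mothers differed. Effects of iCre and of the loss of Bap1 cannot be told apart in this design. All embryos were cultured in KSOM, a potassium simplex optimized medium for mouse embryos. The age of the mothers, the number of embryos in a library and whether libraries of a group came from separate litters are not given in the sources used here. The p-values below therefore measure the spread between these libraries, which may be technical.

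BAP1 is the catalytic subunit of the PR-DUB, the Polycomb repressive deubiquitinase. With an ASXL partner it removes ubiquitin from lysine 119 of histone H2A, a mark that Polycomb repressive complex 1 (PRC1) writes and that helps to hold developmental genes silent. The mouse embryo starts out on RNA made in the oocyte. Its own genome is switched on in a minor wave around the end of the 1-cell stage and in a major wave in the late 2-cell embryo, while maternal transcripts are cleared. A small group of genes, Zscan4 and its neighbours in time, is transcribed almost solely in a short window of the 2-cell stage, and genes for ribosomes, RNA processing and metabolism follow in the major wave.

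Levels are given as deposited by the authors in FPKM, a fragment count divided by the length of the gene and by a library total. Differences are given on the scale log2(FPKM + 1), on which genes of low level show a smaller change than their ratio. "Called" means an adjusted p under 0.05 in limma's moderated test over the 12718 genes that reached 1 FPKM in 2 or more of the 5 libraries. The libraries held 11623 to 11942 genes at 1 FPKM or more. Pearson correlations of log2 values were 0.968 to 0.978 within groups and 0.894 to 0.902 between groups. The RNA Gm23935 alone held 20.2% and 23.1% of all FPKM in the control libraries and 15.3% to 17.3% in the knockout libraries. All 9 markers of the late 2-cell embryo were tested, with summed levels of 379 and 388 FPKM in control and 399.8 to 479.9 FPKM in knockout libraries. The sum hides 2 directions, as 3 of the 9 were called higher (33.3%) and 3 lower (33.3%) in knockout embryos. Over all genes tested the shares were 19.0% and 19.5%. Markers of sperm, blood, fibroblasts and later embryos stayed under the test's filter, with no single value above 1.26 FPKM. Of 10 cumulus and granulosa markers 2 passed the filter, and their whole list summed to 12.5 and 13.4 FPKM in control and 4.17 to 4.48 FPKM in knockout libraries. Amhr2, the receptor of anti-Müllerian hormone, made up most of that sum with 9.60 and 8.59 FPKM in control and 2.34, 1.44 and 1.81 FPKM in knockout libraries. In every control library of the earlier stages Amhr2 was under 1 FPKM. Ptx3 and Inha were at 0 in every library, Fshr and Amh in all but 1, and the part of such cells in the results was not tested.

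Bap1 itself checks the labels. Its level was 24.4 and 20.9 FPKM in control and 9.69, 11.7 and 10.0 FPKM in knockout libraries. The groups did not overlap (log2 fold change -1.04, SE 0.14, adjusted p = 0.00118), and the mean in knockout embryos was 0.463 times that of controls. At earlier stages the knockout means were lower, at 4.41 FPKM in full-grown oocytes, 4.73 FPKM in MII eggs, 5.13 FPKM in late 1-cell and 6.83 FPKM in early 2-cell embryos. The controls of the same stages had 22.8, 29.2, 24.97 and 25.8 FPKM. The knockout effect was smaller at the late 2-cell stage than at the early 2-cell stage, with an interaction of 0.73 (SE 0.20, adjusted p = 0.0249) on the log2 scale. The level comes from the whole gene, and which part the floxed allele removes is not given in the sources used here.

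The comparison asks how the transcriptome of the major wave of genome activation differs when the egg lacked BAP1. Of the 12718 genes tested, 4893 were called (38.5%), 2417 of them higher (19.0%) and 2476 lower (19.5%) in knockout embryos. Of these 12718, 700 passed the filter through the knockout libraries alone and 414 through the control libraries alone. The difference in those genes follows in large part from the filter. With a mean of at least 1 FPKM in both groups 10733 genes were left, 2074 of them higher and 2097 lower. The libraries are bulk RNA of embryos, in which fewer cells or embryos expressing a gene and less RNA per cell cannot be told apart. In every called gene, all knockout libraries lay on the same side of both control libraries, an arrangement seen in 62.2% of the genes tested. The called differences were often moderate: 800 of the higher and 1042 of the lower genes differed by at least 1 on the log2 scale, and 82 and 80 by at least 2. Protein-coding genes made up 80.3% of the higher, 90.3% of the lower and 79.3% of the uncalled genes. Among protein-coding genes, those called lower had the shorter span in the genome, with a median of 19751 bases against 30025 bases for those called higher and 26808.5 bases for those not called. With 38.5% of all genes called, a count of called genes in a group below is to be read against this background. Leaving out control replicate 1 or 2, which leaves 1 control library assumed to vary like the others, reduced the calls to 2878 and 2931. The split of directions moved with the scaling: with every library scaled to the same sum (TPM), the median of all genes moved from 0.03 to 0.16, with 3014 genes higher and 1908 lower. Scaling without the 8 most abundant genes moved it to -0.06, with 2018 higher and 2745 lower. No gene was called in the opposite direction under either scaling.

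**Figure D1:**
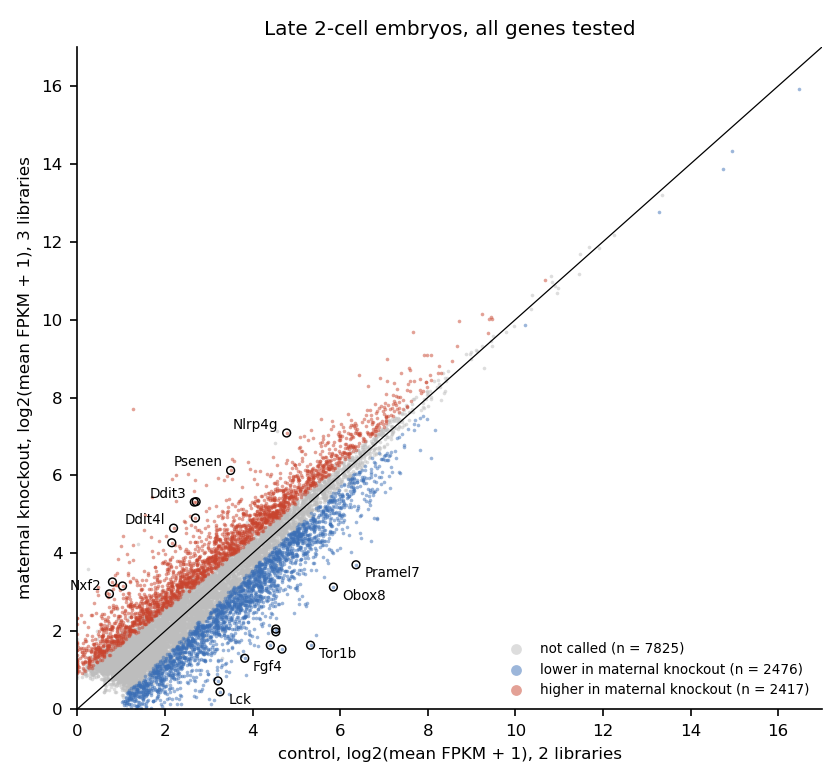
Mean level of each of the 12718 genes tested in the 2 control libraries (horizontal axis) and the 3 knockout libraries (vertical axis), both as log2(mean FPKM + 1), with the line of equal level. Genes called higher (2417) and lower (2476) lie on either side of the line over most of the range, and circles mark the 20 genes that differed most under the naming rule, 10 of them labelled.

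Genes were sorted by what they did in control libraries of earlier stages, none of which entered the late 2-cell test. Genes activated at the early 2-cell stage, at least 1 log2 unit above their level in MII eggs and late 1-cell embryos, had 187 of 421 genes (44.4%) higher and 89 (21.1%) lower, with a median log2 fold change of 0.36 against 0.03 over all genes tested. Of its 249 genes with under 30% of their exonic sequence in other genes 101 were higher and 66 lower, with a median of 0.16. Stable maternal genes, which kept their egg level into the early 2-cell embryo, had 1232 of 4351 genes (28.3%) higher and 608 (13.97%) lower, with a median of 0.17. Falling maternal genes, already declining by the early 2-cell stage, had 411 of 2245 genes (18.3%) higher and 508 (22.6%) lower, with a median of 0.00 that turned negative (-0.09) when scaled without the most abundant genes. Among falling maternal genes the higher count was 220 without control replicate 1, 264 without control replicate 2 and 271 without knockout replicate 3, and the lower count 328 without control replicate 2. Of the genes silent until then, with every earlier control library under 1 FPKM, 1239 passed the filter at the late 2-cell stage, with 90 higher, 335 lower and a median of -0.32. In that class 198 genes passed through the control libraries alone and 180 through the knockout libraries alone. These had to differ, and with a mean of at least 1 FPKM in both groups 23 genes were higher and 157 lower. Without control replicate 1 the silent class had 34 higher and 113 lower genes, and without control replicate 2 it had 31 and 118. The stable maternal class had 812 higher and 346 lower without control replicate 1, and 807 and 368 without control replicate 2.

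**Figure D2:**
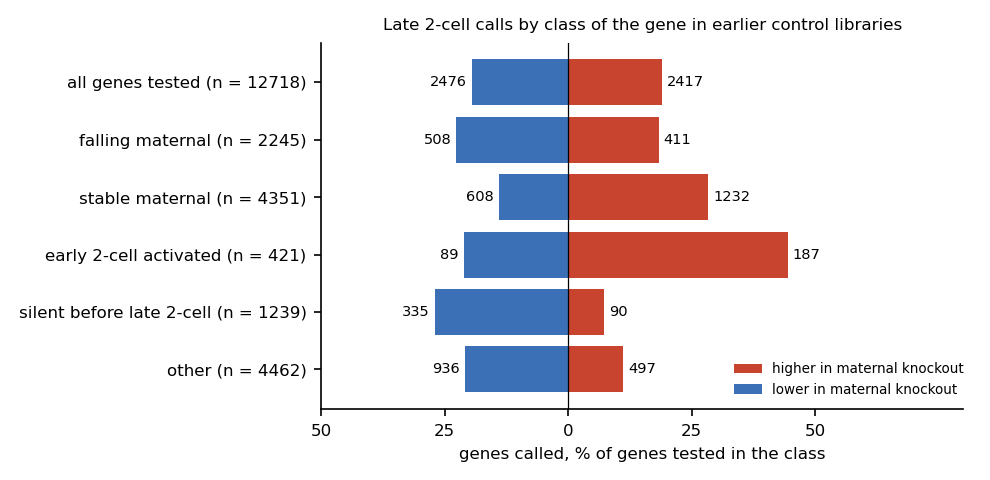
Percent of the genes tested in each class that were called lower (blue, to the left) or higher (red, to the right) in maternal knockout late 2-cell embryos, with the number of genes beside each bar and the class size in brackets. The early 2-cell activated class has the longest bar to the right (187 of 421 genes) and the class silent before the late 2-cell stage has 335 lower against 90 higher.

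The most abundant called genes of each class show the sizes involved. Among the called genes of the previously silent class, those with the highest mean over the 5 libraries under the naming rule included Exoc3l2 and Npl. Exoc3l2, an exocyst-related gene, was at 53.9 and 45.7 FPKM in control and 22.3, 13.8 and 16.95 FPKM in knockout libraries (log2 fold change -1.46, SE 0.19, adjusted p = 0.000905). Npl, which encodes N-acetylneuraminate pyruvate lyase of sialic acid breakdown, was at 34.1 and 34.5 FPKM in control and 5.93, 5.67 and 7.70 FPKM in knockout libraries (log2 fold change -2.26, SE 0.16, adjusted p = 0.00013). Both were lower in every knockout library, and at the early 2-cell stage all group means of both genes were under 1 FPKM. Among early-activated genes, Mphosph6, an exosome cofactor of RNA processing, was at 477 and 363 FPKM in control and 998, 1081 and 929 FPKM in knockout libraries (log2 fold change 1.26, SE 0.13, adjusted p = 0.000363). Cks2, a small subunit of cyclin-dependent kinases, was at 204 and 170.0 FPKM in control and 319, 359.6 and 301 FPKM in knockout libraries (log2 fold change 0.80, SE 0.11, adjusted p = 0.00128). Both were higher in every knockout library. Among stable maternal genes, Btg4, the adaptor that brings the deadenylase to maternal mRNA, was at 724 and 669 FPKM in control and 1066, 1101 and 1032 FPKM in knockout libraries (log2 fold change 0.61, SE 0.08, adjusted p = 0.00114). Early 2-cell embryos had a control mean of 1751 FPKM and a knockout mean of 1384 FPKM. In the falling class Uchl1, an abundant ubiquitin hydrolase of the egg, was at 138 and 116 FPKM in control and 202, 221 and 221 FPKM in knockout libraries (log2 fold change 0.75, SE 0.10, adjusted p = 0.00113). Nexn and Trip12, in none of these classes, were both higher: Nexn, an actin-binding protein, was at 262 and 215 FPKM in control and 633, 475 and 515 FPKM in knockout libraries (log2 fold change 1.18, SE 0.14, adjusted p = 0.000642). Trip12, a ubiquitin ligase, was at 277 and 231 FPKM in control and 637, 489 and 514 FPKM in knockout libraries (log2 fold change 1.10, SE 0.13, adjusted p = 0.000693).

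Genes that build the ribosome were lower together. Of 109 ribosome biogenesis genes tested, 86 were called lower and 3 higher, with a median log2 fold change of -0.92 against 0.03 over all genes. Of 86 cytoplasmic ribosomal protein genes, 69 were lower and 1 higher, with a median of -0.83. The scaling to TPM left 74 and 62 lower. The higher ones were Npm1, Riok1, Noc3l and, among the ribosomal protein genes, Rps27l. Among ribosomal protein genes the higher count was 2 with TPM scaling and 0 with median centring, with quantile normalization, with the scaling without the most abundant genes, without control replicate 1, control replicate 2, knockout replicate 1 or knockout replicate 2. Among ribosomal protein genes with under 30% of their exonic sequence in other annotated genes, such as processed pseudogenes, 50 were lower. Wdr74, a nucleolar factor of large subunit assembly, was at 23.5 and 20.8 FPKM in control and 3.60, 3.58 and 1.67 FPKM in knockout libraries. The control libraries were thus far above every knockout library (log2 fold change -2.59, SE 0.26, adjusted p = 0.00035). Heatr1, needed for transcription of ribosomal DNA and for small subunit assembly, was at 20.96 and 23.3 FPKM in control and 3.91, 4.33 and 3.97 FPKM in knockout libraries (log2 fold change -2.19, SE 0.15, adjusted p = 0.000124). Rpf2, which brings the 5S ribonucleoprotein into the large subunit, was at 14.4 and 11.9 FPKM in control and 4.28, 2.06 and 2.25 FPKM in knockout libraries (log2 fold change -1.91, SE 0.26, adjusted p = 0.00115). Nop56, a core protein of box C/D small nucleolar ribonucleoproteins, was at 107 and 89.0 FPKM in control and 47.4, 51.8 and 49.2 FPKM in knockout libraries (log2 fold change -0.97, SE 0.11, adjusted p = 0.000547). In control embryos the mean of Nop56 had been 19.5 FPKM at the early 2-cell stage, where the knockout mean was 36.0 FPKM. Rps27, a protein of the small subunit, was at 32.2 and 32.6 FPKM in control and 7.55, 5.16 and 3.93 FPKM in knockout libraries (log2 fold change -2.39, SE 0.22, adjusted p = 0.000272). Rps18, of the same subunit, was at 32.1 and 33.1 FPKM in control and 3.84, 6.01 and 8.24 FPKM in knockout libraries (log2 fold change -2.31, SE 0.25, adjusted p = 0.000448). The members that were not lower included Npm1, the nucleolar histone chaperone, at 234 and 214 FPKM in control and 304, 296 and 275 FPKM in knockout libraries. Its call as higher was lost with no filter, without the trend in eBayes, with quantile normalization and without control replicate 2 (log2 fold change 0.32, adjusted p = 0.0776).

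The 250 bases upstream of the annotated start were searched for short letter patterns on both strands, in the RefSeq promoter table (GRCm38.p6), which holds a window for 27025 genes and for 8740 of the symbols tested. A symbol with several gene models can count in more than one group. The patterns were chosen among several after their shares were seen, so the shares are descriptions. CCGGAAG, the core bound by ETS factors such as GABPA, lay in 7.05% of all windows and in 14.5% of those of genes tested. Among genes called lower it lay in 375 of 1848 (20.3%) windows, among those called higher in 179 of 1615 (11.1%) and among those not called in 710 of 5278 (13.5%). Of the ribosome biogenesis genes 28 of 92 (30.4%) had it, of the ribosomal protein genes 18 of 63 (28.6%). Gabpa itself, which encodes the GA-binding protein, was at 112 and 105 FPKM in control and 47.4, 41.6 and 49.6 FPKM in knockout libraries (log2 fold change -1.22, SE 0.11, adjusted p = 0.000235). The 2 windows shown first are those of the ribosome biogenesis genes with the pattern that were furthest below control. AAGGTCA, the monomer site of NR5A2 and related nuclear receptors, lay in 4.05% of all windows and in 2.75% of those of genes tested. Its share was 2.79% among genes called higher, 3.41% among those called lower and 2.50% among those not called. It lay in all 4 Zscan4 windows of the table, and Zscan4c is shown for it. These 4 genes are of the same family and share exonic sequence, so they are not independent. GGATTAA, a core bound by homeobox proteins of the bicoid type, lay in 2.05% of all windows and, among early-activated genes called higher, in 15 of 56 (26.8%). Of these 15 genes 7 have 30% or more of their exonic sequence in other genes, so they are not independent. The window of Zfp352 holds 7 copies of it in a repeated array and is shown for that reason. All 4 windows are on the plus strand, at chr19:8735589-8735838 for Wdr74, chr13:12395125-12395374 for Heatr1, chr7:11005495-11005744 for Zscan4c and chr4:90218570-90218819 for Zfp352, in GRCm38.p6. Capitals mark the pattern on either strand, and a match shows only that the letters are there.
Wdr74: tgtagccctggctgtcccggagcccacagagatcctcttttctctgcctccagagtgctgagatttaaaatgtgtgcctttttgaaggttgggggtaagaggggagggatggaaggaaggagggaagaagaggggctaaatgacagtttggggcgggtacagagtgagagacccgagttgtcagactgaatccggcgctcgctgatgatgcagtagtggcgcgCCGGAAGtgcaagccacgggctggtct
Heatr1: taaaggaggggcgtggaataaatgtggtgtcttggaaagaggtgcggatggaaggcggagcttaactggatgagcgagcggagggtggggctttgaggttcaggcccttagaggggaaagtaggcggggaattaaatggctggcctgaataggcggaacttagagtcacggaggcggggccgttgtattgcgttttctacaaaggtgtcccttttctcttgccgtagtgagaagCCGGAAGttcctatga
Zscan4c: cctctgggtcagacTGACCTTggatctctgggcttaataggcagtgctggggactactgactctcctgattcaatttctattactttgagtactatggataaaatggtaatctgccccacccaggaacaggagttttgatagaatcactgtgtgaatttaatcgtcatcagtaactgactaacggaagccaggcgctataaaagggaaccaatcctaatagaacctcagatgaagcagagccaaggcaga
Zfp352: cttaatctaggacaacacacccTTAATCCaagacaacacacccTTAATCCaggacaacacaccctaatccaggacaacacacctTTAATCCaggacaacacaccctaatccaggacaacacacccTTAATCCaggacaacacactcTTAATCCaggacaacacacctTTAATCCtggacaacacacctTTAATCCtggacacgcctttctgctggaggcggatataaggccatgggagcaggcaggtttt

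Other machinery of gene expression was lower in part. Of 13 RNA polymerase II genes 9 were lower and 3 higher (median -0.46). Among these polymerase genes the higher count was 1 with quantile normalization, without control replicate 1, control replicate 2 or knockout replicate 3, and the lower count 4 without control replicate 1. Polr2m, which encodes the polymerase-associated GDOWN1, was at 17.6 and 11.9 FPKM in control and 1.95, 2.76 and 3.29 FPKM in knockout libraries (log2 fold change -2.10, SE 0.24, adjusted p = 0.00055). Polr2k, a small subunit shared by the nuclear polymerases, was at 22.3 and 18.4 FPKM in control and 4.74, 6.36 and 7.18 FPKM in knockout libraries (log2 fold change -1.60, SE 0.19, adjusted p = 0.000648). Translation initiation and elongation genes had 22 lower and 8 higher of 57 (median -0.28). Among translation genes the higher count was 5 without control replicate 2, knockout replicate 2 or with under 30% shared sequence. Eif3l, a subunit of initiation factor eIF3, was at 15.2 and 13.6 FPKM in control and 1.38, 3.23 and 3.55 FPKM in knockout libraries (log2 fold change -2.10, SE 0.28, adjusted p = 0.00112). The higher members were led by Eif4a3l1 and Eif4a3l2, copies related to the exon junction helicase. Eif4a3l1 was at 1.99 and 1.83 FPKM in control and 38.1, 27.4 and 25.9 FPKM in knockout libraries (log2 fold change 3.41, SE 0.19, adjusted p = 5.21e-05), with 47.5% of its exonic sequence in other genes. At the early 2-cell stage its control mean was 25.8 FPKM and its knockout mean 15.9 FPKM. Spliceosome genes had 20 lower and 5 higher of 65 (median -0.31). Among spliceosome genes the higher count was 2 without control replicate 1, and the lower count 10 without control replicate 2. Sf3b6, a protein of the branch site complex, was at 24.8 and 22.2 FPKM in control and 8.99, 5.66 and 6.70 FPKM in knockout libraries (log2 fold change -1.61, SE 0.19, adjusted p = 0.000631).

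Proteasome genes had 17 lower and 6 higher of 44 tested (median -0.43), with 9 lower without control replicate 2. Psma6, an alpha subunit of the core particle, was at 20.5 and 23.2 FPKM in control and 5.78, 5.59 and 5.84 FPKM in knockout libraries (log2 fold change -1.76, SE 0.14, adjusted p = 0.000178), and Psmd7, of the regulatory lid, had a log2 fold change of -1.40. Mitochondrial ribosome genes had 18 lower and 6 higher of 68 (median -0.28). Among these genes the higher count was 2 without control replicate 1 and 3 without control replicate 2 or knockout replicate 2. Mrpl20 was at 24.5 and 24.5 FPKM in control and 5.98, 6.24 and 4.61 FPKM in knockout libraries (log2 fold change -1.96, SE 0.16, adjusted p = 0.000198), and Mrpl48 went the other way at 5.29 and 2.71 FPKM in control and 14.6, 22.4 and 14.2 FPKM in knockout libraries (log2 fold change 1.87, SE 0.27, adjusted p = 0.00145). Heat shock and chaperone genes had 10 lower and 2 higher of 26 (median -0.15). Among chaperone genes the higher count was 1 without control replicate 1 or knockout replicate 3. Hspa4 and Hsph1, both of the Hsp110 type, were lower with log2 fold changes of -1.37 and -1.15. Hspa1b, an inducible Hsp70 known for its early transcription in the 2-cell embryo, was not called, at 6.63 and 7.35 FPKM in control and 9.96, 7.82 and 9.22 FPKM in knockout libraries. Of 13 proteins encoded by the mitochondrial genome 1 was lower and 1, mt-Nd3, higher. Among these mitochondrial genes the higher count was 4 with TPM scaling, 0 with quantile normalization, without control replicate 1 or with under 30% shared sequence and 2 without knockout replicate 3, and the lower count 2 without control replicate 1 and 0 without knockout replicate 3. The lower one, mt-Cytb, was at 9731 and 10060.1 FPKM in control and 7301, 6664 and 6887 FPKM in knockout libraries (log2 fold change -0.51, SE 0.10, adjusted p = 0.00541), a call lost with no filter on low values, with quantile normalization and without knockout replicate 3 (log2 fold change -0.50, adjusted p = 0.0578).

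**Figure D3:**
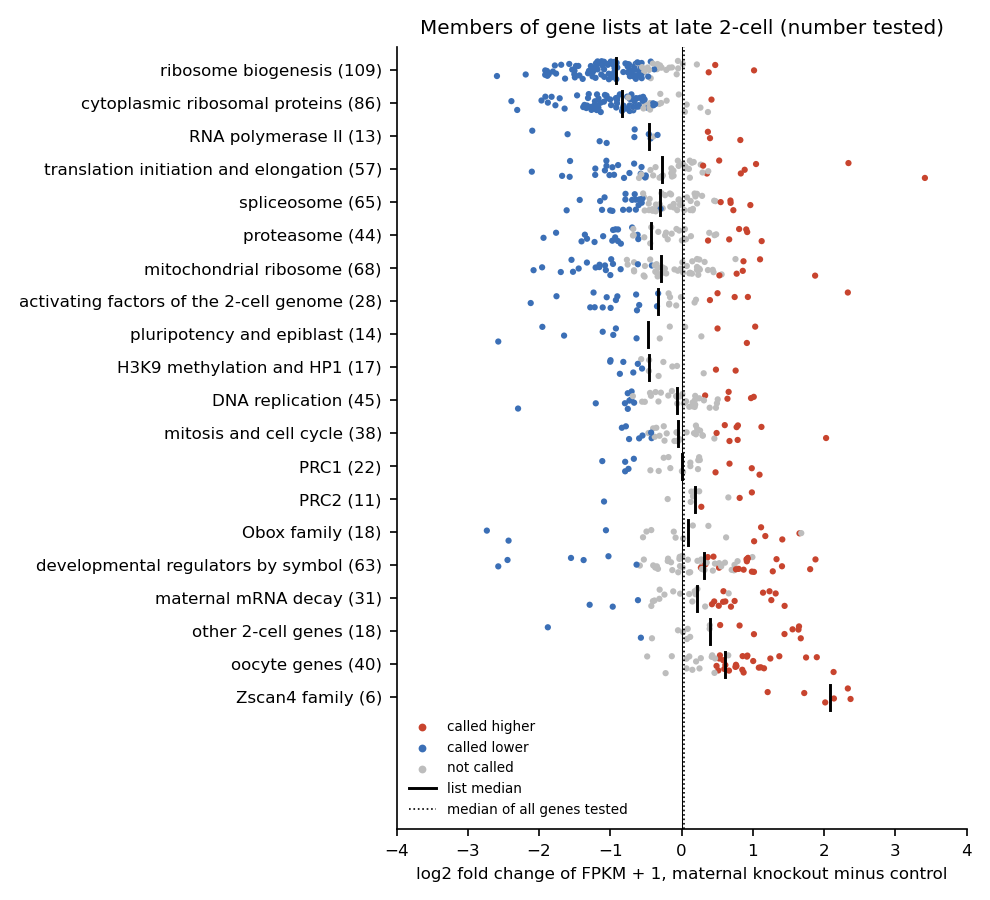
Log2 fold change of each tested member of 20 gene lists, maternal knockout minus control, with the number tested in brackets, the list median as a black bar and the median of all genes as a dotted line. Ribosome biogenesis (median -0.92) and cytoplasmic ribosomal proteins (-0.83) lie to the left with most members called lower, and the Zscan4 family (2.08) and oocyte genes (0.61) lie to the right with no member called lower.

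Genes of the 2-cell window were split. All 6 Zscan4 genes tested were higher, with a median log2 fold change of 2.08 and none lower at any p. ZSCAN4 proteins act at telomeres and mark a short-lived 2-cell state. Zscan4f was at 10.7 and 10.3 FPKM in control and 68.8, 55.0 and 52.99 FPKM in knockout libraries (log2 fold change 2.37, SE 0.14, adjusted p = 6.29e-05). Zscan4d was at 7.91 and 8.13 FPKM in control and 44.8, 30.8 and 32.3 FPKM in knockout libraries (log2 fold change 2.02, SE 0.17, adjusted p = 0.000222). Zscan4c was at 4.49 and 4.45 FPKM in control and 33.5, 20.0 and 27.9 FPKM in knockout libraries (log2 fold change 2.33, SE 0.21, adjusted p = 0.000242). No control library reached the lowest knockout library in any of these genes. The 6 genes have 50% to 90% of their exonic words in other genes. Their reads cannot be told apart with certainty, and none is left when only genes under 30% are counted. Early 2-cell levels of Zscan4c were 50.1 ± 9.39 FPKM in 3 control libraries and 28.2 ± 13.2 FPKM in 3 knockout libraries (mean ± SD), against late 2-cell means of 4.47 FPKM in control and 27.1 FPKM in knockout libraries. Zfp352, a zinc finger gene of the same window with 7.09% shared sequence, was at 31.2 and 34.1 FPKM in control and 119, 99.2 and 96.5 FPKM in knockout libraries (log2 fold change 1.65, SE 0.12, adjusted p = 0.000139). Its early 2-cell levels were 58.4 ± 4.85 FPKM in 3 control libraries and 21.4 ± 8.98 FPKM in 3 knockout libraries (mean ± SD), so here the knockout mean was the lower one at the early stage and the higher one at the late stage.

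Of the other 2-cell genes 8 of 18 were higher and 2 lower, Calcoco2 and Ubtfl1 (median 0.40). Among these genes the lower count was 1 with TPM scaling, without control replicate 1, control replicate 2 or knockout replicate 3. Tmem92 was at 28.9 and 23.1 FPKM in control and 85.7, 73.6 and 75.5 FPKM in knockout libraries (log2 fold change 1.56, SE 0.13, adjusted p = 0.000187). Nelfa, a subunit of the negative elongation factor, was at 39.7 and 36.5 FPKM in control and 70.7, 64.5 and 68.0 FPKM in knockout libraries (log2 fold change 0.81, SE 0.10, adjusted p = 0.000693). Calcoco2, an autophagy receptor gene, was lower at 58.0 and 68.4 FPKM in control and 17.5, 14.4 and 17.6 FPKM in knockout libraries (log2 fold change -1.88, SE 0.13, adjusted p = 0.000141). At the Dux locus, whose homeobox products switch on 2-cell genes, 3 of 4 genes tested were called higher at low levels. All 4 passed the filter through the knockout libraries alone, so they had to be higher there and the count is a description. Duxf3 was at 0.452 and 0.463 FPKM in control and 1.83, 2.45 and 1.20 FPKM in knockout libraries (log2 fold change 0.93, SE 0.26, adjusted p = 0.0245), and none of the 3, which include the models Gm10807 and AW822073, was called without control replicate 1 or without control replicate 2. Without knockout replicate 2 1 was called, and none has under 30% shared sequence. Duxf3 at the early 2-cell stage was at 4.86 ± 1.35 FPKM in 3 control libraries and 23.0 ± 4.19 FPKM in 3 knockout libraries (mean ± SD). Obox genes, homeobox genes of the oocyte and 2-cell embryo, had 5 higher (27.8%) and 3 lower (16.7%) of 18 tested. Over all genes tested the shares were 19.0% and 19.5%. Among Obox genes the higher count was 3 without control replicate 1 or knockout replicate 1 and 1 with under 30% shared sequence, and the lower count 5 without knockout replicate 1. Obox5, a maternal member, was higher at 103 and 93.8 FPKM in control and 301, 327 and 308 FPKM in knockout libraries (log2 fold change 1.65, SE 0.09, adjusted p = 4.83e-05). Obox6 was lower at 109 and 96.2 FPKM in control and 24.9, 12.9 and 18.8 FPKM in knockout libraries (log2 fold change -2.43, SE 0.23, adjusted p = 0.000281). Obox8 was at 53.1 and 60.1 FPKM in control and 5.73, 8.98 and 8.61 FPKM in knockout libraries (log2 fold change -2.73, SE 0.19, adjusted p = 0.000124). Obox6 at the early 2-cell stage was at 6.91 ± 1.22 FPKM in 3 control libraries and 1.04 ± 0.547 FPKM in 3 knockout libraries (mean ± SD). PRAME-like genes had 4 higher (33.3%) and 4 lower (33.3%) of 12 tested. Among PRAME-like genes the higher count was 2 with under 30% shared sequence. Pramel7 and Pramel6, factors known from ground-state pluripotency, were lower, Pramel7 at 92.1 and 70.4 FPKM in control and 19.2, 7.78 and 9.13 FPKM in knockout libraries (log2 fold change -2.75, SE 0.32, adjusted p = 0.000627) and Pramel6 at 25.7 and 21.2 FPKM in control and 5.64, 6.26 and 4.52 FPKM in knockout libraries (log2 fold change -1.92, SE 0.17, adjusted p = 0.000256). Tdpoz and Tcstv genes had 4 higher (36.4%) and 2 lower (18.2%) of 11 tested. Among Tdpoz and Tcstv genes the higher count was 2 with under 30% shared sequence, and the lower count 1 without control replicate 1 or knockout replicate 3, 0 without control replicate 2 or with under 30% shared sequence and 4 without knockout replicate 1. Tcstv3 was higher at 32.03 and 32.6 FPKM in control and 96.7, 64.6 and 71.5 FPKM in knockout libraries (log2 fold change 1.22, SE 0.16, adjusted p = 0.00105).

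Of 28 factors linked to genome activation 15 were lower and 5 higher (median -0.34). Tead4, which drives trophectoderm genes later on, was at 6.24 and 7.65 FPKM in control and 0.805, 0.428 and 1.36 FPKM in knockout libraries (log2 fold change -2.12, SE 0.26, adjusted p = 0.000801). Dppa4, a chromatin factor that acts with DPPA2 upstream of Dux, was at 78.6 and 67.3 FPKM in control and 24.4, 18.8 and 19.7 FPKM in knockout libraries (log2 fold change -1.76, SE 0.14, adjusted p = 0.000178). Both were lower in all knockout libraries. Tfap2c, an AP-2 factor of early embryos, was at 17.7 and 16.6 FPKM in control and 6.34, 6.40 and 6.62 FPKM in knockout libraries (log2 fold change -1.28, SE 0.14, adjusted p = 0.00045). Esrrb, an orphan nuclear receptor, was at 12.6 and 16.04 FPKM in control and 5.38, 5.41 and 7.68 FPKM in knockout libraries (log2 fold change -1.11, SE 0.20, adjusted p = 0.0035). Nr5a2, an orphan nuclear receptor of genome activation, was at 34.9 and 38.1 FPKM in control and 21.3, 19.4 and 30.4 FPKM in knockout libraries (log2 fold change -0.63, SE 0.18, adjusted p = 0.0279). The call of Nr5a2 was lost with TPM scaling, with no filter, without the trend in eBayes and when control replicate 1, control replicate 2, knockout replicate 1 or knockout replicate 2 was left out, with adjusted p of 0.0859, 0.139, 0.0572 and 0.0661. Among the higher members, Zscan4c and Duxf3 are given above. Among these factors the higher count was 2 without control replicate 1 and 3 without knockout replicate 2 or with under 30% shared sequence.

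Oocyte transcripts were at higher levels in knockout embryos. Of 40 oocyte genes tested 25 were higher and none was lower, with a median log2 fold change of 0.61. At an unadjusted p under 0.05 in limma 2 were lower. Among oocyte genes the lower count was 1 with quantile normalization, without knockout replicate 1 or knockout replicate 3 and 2 with the scaling without the most abundant genes. Nlrp4f, an NLRP protein of the egg's subcortical complex, was at 89.8 and 81.7 FPKM in control and 382, 386 and 369.7 FPKM in knockout libraries (log2 fold change 2.13, SE 0.08, adjusted p = 2.24e-05). Nlrp14, an NLRP protein of oocytes needed for early cleavage, was at 52.2 and 40.3 FPKM in control and 161, 189 and 172 FPKM in knockout libraries (log2 fold change 1.90, SE 0.13, adjusted p = 0.000122). Ooep, another protein of the subcortical maternal complex, was at 8.18 and 8.91 FPKM in control and 23.7, 22.9 and 24.4 FPKM in knockout libraries (log2 fold change 1.37, SE 0.12, adjusted p = 0.000245). At the early 2-cell stage Nlrp4f was at 488 ± 37.7 FPKM in 3 control libraries and 545 ± 33.2 FPKM in 3 knockout libraries (mean ± SD), and Nlrp14 at 102 ± 22.9 FPKM in 3 control libraries and 98.2 ± 37.1 FPKM in 3 knockout libraries (mean ± SD). Gdf9, the growth factor whose promoter drives iCre here, was at 61.9 and 70.1 FPKM in control and 126, 195 and 132 FPKM in knockout libraries (log2 fold change 1.16, SE 0.18, adjusted p = 0.00199). For Gdf9 the knockout mean had been above the control mean from the late 1-cell stage on, at 418 against 190.2 FPKM. Bmp15, a second oocyte growth factor, was at 120.0 and 121 FPKM in control and 220.4, 226 and 216 FPKM in knockout libraries (log2 fold change 0.87, SE 0.08, adjusted p = 0.00026). Of the 8 oocyte markers, which overlap with this list, 6 were higher and none lower (1 with the scaling without the most abundant genes), and their summed level was 496 and 521 FPKM in control and 803 to 935.9 FPKM in knockout libraries.

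Genes of maternal mRNA decay had 13 higher and 3 lower of 31 tested (median 0.22). Among decay genes the lower count was 6 with the scaling without the most abundant genes. Cnot7 and Cnot6l, catalytic subunits of the CCR4-NOT deadenylase, were both higher. Cnot7 was at 155 and 142 FPKM in control and 371, 296 and 321 FPKM in knockout libraries (log2 fold change 1.14, SE 0.11, adjusted p = 0.000311). Cnot6l was at 47.7 and 44.7 FPKM in control and 70.8, 70.0 and 67.9 FPKM in knockout libraries (log2 fold change 0.58, SE 0.09, adjusted p = 0.00206). Zfp36l2, which recruits the deadenylase to AU-rich mRNA, was at 6.06 and 4.88 FPKM in control and 11.6, 14.5 and 17.8 FPKM in knockout libraries (log2 fold change 1.26, SE 0.20, adjusted p = 0.00207). Pabpc1l and Pabpn1l, poly(A)-binding proteins of the oocyte, were higher, Pabpc1l at 6.58 and 7.25 FPKM in control and 16.9, 23.5 and 21.8 FPKM in knockout libraries (log2 fold change 1.45, SE 0.17, adjusted p = 0.000585). Cnot10, a noncatalytic subunit, was lower at 10.0 and 13.3 FPKM in control and 4.45, 4.22 and 3.74 FPKM in knockout libraries (log2 fold change -1.29, SE 0.18, adjusted p = 0.00131).

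Pluripotency genes had 7 lower and 3 higher of 14 tested (median -0.47), with 4 lower without control replicate 2 and 1 higher without control replicate 1. Fgf4, the growth factor of the future epiblast, was at 12.4 and 13.9 FPKM in control and 2.43, 0.761 and 1.22 FPKM in knockout libraries (log2 fold change -2.57, SE 0.29, adjusted p = 0.000517). Klf2, a Krüppel-like factor of naive pluripotency, was at 4.77 and 6.14 FPKM in control and 0.783, 0.722 and 0.48 FPKM in knockout libraries (log2 fold change -1.95, SE 0.23, adjusted p = 0.000592). Klf2 passed the filter through the control libraries alone, so it had to be lower in knockout embryos and its values are a description. Dppa5a, an RNA-binding protein of pluripotent cells, was at 25.2 and 18.4 FPKM in control and 7.20, 5.45 and 6.02 FPKM in knockout libraries (log2 fold change -1.65, SE 0.18, adjusted p = 0.000525). Every knockout library was below every control library in the 3 genes. The higher members were Pou5f1, Sox2 and Tcl1, of which Pou5f1 and Sox2 encode core factors of pluripotency. Of 9 trophectoderm and primitive endoderm genes tested 3 were lower (Gata4, Tead4 and Tfap2c) and 1 higher (Tfap2a). Among these lineage genes the higher count was 2 with TPM scaling, with median centring, with quantile normalization or without knockout replicate 1 and 0 with the scaling without the most abundant genes, without control replicate 1, knockout replicate 2 or knockout replicate 3. Gata4, a primitive endoderm factor, was at 45.3 and 45.6 FPKM in control and 21.9, 22.3 and 21.2 FPKM in knockout libraries (log2 fold change -1.03, SE 0.10, adjusted p = 0.00035). Developmental regulators were picked by symbol family alone (Hox, Sox, Gata, Fox, Fgf and the like), families that hold classical Polycomb targets. Whether the members tested are such targets in these embryos was not tested. Of 231 listed 63 passed the filter, with 19 higher (30.2%) and 6 lower (9.52%), and a median of 0.31. Over all genes tested 19.0% were higher and 19.5% lower. Of the 63, 6 passed through the knockout libraries alone. With a mean of at least 1 FPKM in both groups 15 were higher and 6 lower. Without control replicate 1 or 2 the higher count was 12 or 10. Fgf8, a patterning growth factor, was higher at 1.72 and 3.06 FPKM in control and 7.98, 12.2 and 14.4 FPKM in knockout libraries (log2 fold change 1.88, SE 0.27, adjusted p = 0.00144). Gata1, the erythroid GATA factor, was lower at 20.1 and 21.8 FPKM in control and 2.84, 3.99 and 2.42 FPKM in knockout libraries (log2 fold change -2.44, SE 0.20, adjusted p = 0.000187). At the early 2-cell stage both Gata1 means were under 1 FPKM.

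Genes of the PR-DUB and of the Polycomb complexes were called in both directions. Called higher and lower were 18.2% and 18.2% of PR-DUB genes, 18.2% and 22.7% of PRC1 genes and 27.3% and 9.09% of PRC2 genes. Over all genes tested the shares were 19.0% and 19.5%, so PR-DUB and PRC1 genes were near the background. Of 11 PR-DUB genes and partners tested 2 were lower, Bap1 and Ube2o, and 2 higher, Kdm1b and Foxk2. Among PR-DUB genes the higher count was 1 with quantile normalization, with the scaling without the most abundant genes, without control replicate 2 or knockout replicate 3. Ube2o, which ubiquitinates the nuclear import signal of BAP1, was at 73.0 and 59.8 FPKM in control and 29.5, 23.2 and 27.5 FPKM in knockout libraries (log2 fold change -1.28, SE 0.14, adjusted p = 0.000466). Asxl1 and Asxl2, which encode the obligate partners, were not called: Asxl1 was at 25.5 and 27.7 FPKM in control and 30.9, 31.2 and 30.8 FPKM in knockout libraries and Asxl2 at 9.99 and 13.0 FPKM in control and 17.3, 12.001 and 14.4 FPKM in knockout libraries. Kdm1b, an H3K4 demethylase of growing oocytes, was higher at 17.1 and 18.8 FPKM in control and 25.5, 31.7 and 31.4 FPKM in knockout libraries (log2 fold change 0.69, SE 0.13, adjusted p = 0.00538). Of 22 PRC1 genes 5 were lower and 4 higher, the latter 2 without control replicate 1 and 1 without control replicate 2. Phc1, a polyhomeotic subunit, was higher at 8.72 and 9.69 FPKM in control and 20.4, 21.8 and 20.2 FPKM in knockout libraries (log2 fold change 1.09, SE 0.13, adjusted p = 0.000576), and Cbx7, a chromodomain subunit, was lower at 5.48 and 6.76 FPKM in control and 2.74, 2.28 and 1.88 FPKM in knockout libraries (log2 fold change -1.11, SE 0.21, adjusted p = 0.00465). Rnf2, the main ubiquitin ligase for H2A, was not called, at 65.9 and 61.7 FPKM in control and 60.8, 53.6 and 57.1 FPKM in knockout libraries. Of 11 PRC2 genes 3 were higher and 1 lower. Among PRC2 genes the higher count was 6 with TPM scaling and 5 with median centring. Ezh2, the methyltransferase for H3K27, was higher at 81.4 and 69.8 FPKM in control and 141, 133 and 126 FPKM in knockout libraries (log2 fold change 0.82, SE 0.10, adjusted p = 0.000796). Eed, its partner, was at 31.9 and 28.5 FPKM in control and 69.5, 69.6 and 46.3 FPKM in knockout libraries (log2 fold change 0.99, SE 0.18, adjusted p = 0.00406). Mtf2, an accessory subunit, was lower at 44.7 and 48.9 FPKM in control and 19.6, 21.5 and 23.4 FPKM in knockout libraries (log2 fold change -1.09, SE 0.12, adjusted p = 0.000474). Of 8 other H2A deubiquitinases Usp46 was higher, and Usp16 and Mysm1 were lower. Among these enzymes the higher count was 0 without control replicate 1, and the lower count 1 with TPM scaling, without control replicate 1 or control replicate 2.

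Further chromatin genes were called in both directions. H3K27 and H3K4 modifiers were near the background, with 22.2% higher and 22.2% lower against 19.0% and 19.5% over all genes tested. H3K27 and H3K4 modifiers had 4 higher and 4 lower of 18, with 2 higher without control replicate 2. Kdm5a and Kdm5b, demethylases of H3K4, were lower, Kdm5b at 60.9 and 53.3 FPKM in control and 34.4, 29.8 and 30.9 FPKM in knockout libraries (log2 fold change -0.83, SE 0.11, adjusted p = 0.00117), as was Ep300, an acetyltransferase of H3K27, at 78.8 and 69.1 FPKM in control and 35.6, 36.0 and 40.3 FPKM in knockout libraries (log2 fold change -0.97, SE 0.11, adjusted p = 0.00055). Kdm6b, a demethylase of H3K27, was higher at 41.0 and 33.3 FPKM in control and 64.7, 68.7 and 73.1 FPKM in knockout libraries (log2 fold change 0.88, SE 0.12, adjusted p = 0.00107). Genes of H3K9 methylation and HP1 had 7 lower and 2 higher of 17 (median -0.46). Among H3K9 genes the higher count was 1 with the scaling without the most abundant genes, without control replicate 1, control replicate 2, knockout replicate 2 or knockout replicate 3, and the lower count 4 without control replicate 1. Morc3, a GHKL ATPase of silent chromatin, was at 24.4 and 22.7 FPKM in control and 12.7, 9.80 and 11.4 FPKM in knockout libraries (log2 fold change -1.002, SE 0.14, adjusted p = 0.0014). Genes of DNA methylation had 6 higher and 4 lower of 18, the lower count being 2 without control replicate 1, without control replicate 2 or without knockout replicate 3. The shares of this list were 33.3% higher and 22.2% lower, against 19.0% and 19.5% over all genes tested. Zfp57, which protects imprints, was higher at 171 and 161 FPKM in control and 358, 417 and 403 FPKM in knockout libraries (log2 fold change 1.24, SE 0.09, adjusted p = 0.000153). Uhrf1, the partner of DNMT1, was at 32.5 and 32.8 FPKM in control and 59.1, 68.4 and 74.0 FPKM in knockout libraries (log2 fold change 1.01, SE 0.12, adjusted p = 0.000585). Of 10 noncanonical imprinted genes tested, which depend on maternal H3K27 methylation, 1 was lower and none higher, and 1 was higher at an unadjusted p under 0.05 in limma. Among noncanonical imprinted genes the higher count was 1 with TPM scaling, with median centring, with quantile normalization or without knockout replicate 1, and the lower count 2 without knockout replicate 1. Gab1, a docking protein of receptor signalling, was at 3.702 and 4.01 FPKM in control and 0.697, 1.18 and 1.18 FPKM in knockout libraries (log2 fold change -1.27, SE 0.23, adjusted p = 0.00358). Canonical imprinted genes had 5 higher (26.3%) and 4 lower (21.1%) of 19, against 19.0% and 19.5% over all genes tested. Among canonical imprinted genes the higher count was 3 without control replicate 1 or knockout replicate 3. Usp29 and Igf2r were lower with log2 fold changes of -1.47 and -1.14, and Mest was higher with 0.97.

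Cell cycle and DNA genes were mixed. Called higher and lower were 21.1% and 18.4% of mitosis and cell cycle genes and 11.1% and 20.0% of DNA replication genes. Over all genes tested the shares were 19.0% and 19.5%. Mitosis and cell cycle genes had 8 higher and 7 lower of 38, the lower count being 3 with TPM scaling, without either control library or without knockout replicate 2, and the higher count 5 without control replicate 1. Ttk, a kinase of the spindle checkpoint, was higher at 19.1 and 22.9 FPKM in control and 88.8, 90.9 and 85.5 FPKM in knockout libraries (log2 fold change 2.03, SE 0.11, adjusted p = 4.83e-05). E2f5, a repressor E2F, was higher at 186 and 199 FPKM in control and 446, 389 and 426 FPKM in knockout libraries (log2 fold change 1.12, SE 0.09, adjusted p = 0.000187), and Ccne1, the cyclin that starts S phase, was lower at 160.1 and 147 FPKM in control and 88.5, 85.9 and 82.2 FPKM in knockout libraries (log2 fold change -0.84, SE 0.09, adjusted p = 0.000441). DNA replication genes had 9 lower and 5 higher of 45. Among replication genes the higher count was 8 with TPM scaling and 3 with the scaling without the most abundant genes, without control replicate 1, knockout replicate 1, knockout replicate 2 or knockout replicate 3, and the lower count 5 without control replicate 2. Gins3, of the replicative helicase, was lower at 7.85 and 8.29 FPKM in control and 0.743, 0.605 and 1.26 FPKM in knockout libraries (log2 fold change -2.29, SE 0.23, adjusted p = 0.000351), as was Mcm7, a subunit of the same helicase, with -1.20. Of 26 genes of homologous recombination and DNA damage 4 were higher and 3 lower, the higher count being 7 with TPM scaling and 2 without control replicate 1. The shares of this list were 15.4% higher and 11.5% lower, below those over all genes tested. Chek2, a checkpoint kinase, was lower at 27.7 and 28.7 FPKM in control and 9.70, 11.5 and 10.1 FPKM in knockout libraries (log2 fold change -1.36, SE 0.13, adjusted p = 0.000292). Among 24 p53 pathway genes tested 2 were higher (8.33%) and 4 lower (16.7%), against 19.0% and 19.5% over all genes tested. Among p53 pathway genes the higher count was 4 with TPM scaling and 1 without control replicate 2, and the lower count 2 without control replicate 2. Cdkn1a, the p53 target that halts the cycle, was not called, at 7.75 and 9.90 FPKM in control and 5.37, 8.97 and 6.71 FPKM in knockout libraries. Sesn2, a stress-induced inhibitor of mTOR, was lower at 65.0 and 56.6 FPKM in control and 24.97, 23.8 and 28.5 FPKM in knockout libraries (log2 fold change -1.21, SE 0.12, adjusted p = 0.000358).

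Replication-dependent histone genes had 21 higher and 3 lower of 64 tested (median 0.33). Among histone genes the higher count was 11 without control replicate 1 and 7 with under 30% shared sequence, and the lower count 1 with TPM scaling, without control replicate 1 or knockout replicate 3, 5 with the scaling without the most abundant genes and 0 without control replicate 2 or with under 30% shared sequence. H2ac18 had the largest difference of all genes tested, at 1.53 and 1.28 FPKM in control and 174, 252 and 202 FPKM in knockout libraries (log2 fold change 6.44, SE 0.16, adjusted p = 1.51e-06). All of its exonic 50-base words also lie in other genes, so reads may have been split between copies. Its early 2-cell levels were 194 ± 39.3 FPKM in 3 control libraries and 69.0 ± 116 FPKM in 3 knockout libraries (mean ± SD). Clock genes had 6 higher and none lower of 17 in limma (0 lower at an unadjusted p under 0.05), a higher count of 3 when either control library or knockout replicate 2 or 3 was left out. Dbp, an output gene of the clock, was higher at 1.69 and 2.23 FPKM in control and 7.08, 10.0 and 9.49 FPKM in knockout libraries (log2 fold change 1.73, SE 0.21, adjusted p = 0.000682). Genes of glycolysis and pyruvate entry had 4 higher and 4 lower of 22, the lower count being 2 with TPM scaling, 1 without control replicate 1 and 0 without control replicate 2. The shares of this list, 18.2% higher and 18.2% lower, were near the 19.0% and 19.5% over all genes tested. Its median log2 fold change was -0.11, and the examples that follow are higher members only. Slc2a1, the glucose transporter GLUT1, was higher at 3.56 and 3.84 FPKM in control and 8.67, 10.7 and 9.32 FPKM in knockout libraries (log2 fold change 1.17, SE 0.17, adjusted p = 0.00136). Pfkm, a phosphofructokinase, was at 0.826 and 0.591 FPKM in control and 2.44, 3.57 and 4.20 FPKM in knockout libraries (log2 fold change 1.35, SE 0.25, adjusted p = 0.00426). Pfkm passed the filter through the knockout libraries alone, so it had to be higher there and its values are a description.

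The 10 genes furthest below control were, apart from Prlr, at a mean of 5.95 FPKM or less in control embryos at the early 2-cell stage. Tor1b, a torsin ATPase of the endoplasmic reticulum and nuclear envelope, was at 37.7 and 40.4 FPKM in control and 1.05, 2.01 and 3.29 FPKM in knockout libraries. Both control libraries stood far above all knockout libraries (log2 fold change -3.75, SE 0.28, adjusted p = 0.000152). At the early 2-cell stage its control mean was 0.112 FPKM, and it was listed at 0 in all 3 knockout libraries. Prlr, the prolactin receptor, was at 23.9 and 25.1 FPKM in control and 2.01, 1.99 and 1.71 FPKM in knockout libraries (log2 fold change -3.13, SE 0.16, adjusted p = 4.83e-05). Its knockout levels were below control at earlier stages too, with MII means of 8.62 FPKM in control and 0.599 FPKM in knockout eggs and early 2-cell levels of 18.1 ± 0.213 FPKM in 3 control libraries and 1.28 ± 0.669 FPKM in 3 knockout libraries (mean ± SD). Lck, a Src-family kinase best known from T cells, was at 6.84 and 10.3 FPKM in control and 0, 0.683 and 0.393 FPKM in knockout libraries (log2 fold change -2.82, SE 0.29, adjusted p = 0.000415). Lck passed the filter through the control libraries alone, so it had to be lower in knockout embryos and its values are a description. Stmn3, a stathmin-like protein that destabilizes microtubules, was at 20.7 and 19.8 FPKM in control and 2.24, 2.46 and 1.64 FPKM in knockout libraries (log2 fold change -2.78, SE 0.19, adjusted p = 0.00012). In the pair of genes no knockout library reached 3 FPKM. Socs3, the feedback inhibitor of JAK-STAT signalling, was at 25.7 and 18.6 FPKM in control and 2.27, 2.78 and 4.42 FPKM in knockout libraries (log2 fold change -2.49, SE 0.25, adjusted p = 0.00035). A model listed as Trmt61b, which GENCODE M21 annotates as an antisense RNA, was at 7.82 and 8.72 FPKM in control and 1.18, 0.176 and 0.597 FPKM in knockout libraries (log2 fold change -2.53, SE 0.29, adjusted p = 0.000547). Whether counting used the strand is not given in the sources used here, so its reads and those of the gene opposite cannot be told apart. The other members of the 10, Pramel7, Obox8, Wdr74 and Fgf4, are given with their groups above.

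The 10 genes furthest above control included several whose control level was higher at the early 2-cell stage. Ddit3, the stress-induced transcription factor CHOP, was at 3.57 and 7.16 FPKM in control and 37.9, 38.9 and 39.7 FPKM in knockout libraries (log2 fold change 2.704, SE 0.22, adjusted p = 0.000198). Its early 2-cell levels were 19.03 ± 5.92 FPKM in 3 control libraries and 40.3 ± 5.96 FPKM in 3 knockout libraries (mean ± SD), and the difference between the stages' effects was 1.63 (SE 0.36, adjusted p = 0.00972). Psenen, a subunit of gamma-secretase, was at 9.85 and 10.8 FPKM in control and 70.4, 66.4 and 69.9 FPKM in knockout libraries (log2 fold change 2.63, SE 0.10, adjusted p = 2.24e-05). Here the early 2-cell levels were 101 ± 4.76 FPKM in 3 control libraries and 100.5 ± 22.6 FPKM in 3 knockout libraries (mean ± SD). Fmc1, an assembly factor of the mitochondrial ATP synthase, was at 0.34 and 1.75 FPKM in control and 10.7, 7.13 and 5.96 FPKM in knockout libraries (log2 fold change 2.18, SE 0.34, adjusted p = 0.00206). Nlrp4g, annotated as a transcribed pseudogene of the NLRP family, was at 23.4 and 29.5 FPKM in control and 106, 159 and 141 FPKM in knockout libraries (log2 fold change 2.30, SE 0.18, adjusted p = 0.000153). Their early 2-cell control means were 13.2 and 215 FPKM. Hes1, a repressor and Notch target, had a different history: it was at 3.60 and 7.37 FPKM in control and 26.8, 30.1 and 29.98 FPKM in knockout libraries (log2 fold change 2.27, SE 0.23, adjusted p = 0.000397), above its early 2-cell levels of 6.32 ± 3.33 FPKM in 3 control libraries and 5.38 ± 3.65 FPKM in 3 knockout libraries (mean ± SD). Ddit4l, an inhibitor of mTOR signalling, was at 3.30 and 3.88 FPKM in control and 30.5, 20.2 and 21.4 FPKM in knockout libraries (log2 fold change 2.43, SE 0.20, adjusted p = 0.000183), and was at 8.50 ± 2.14 FPKM in 3 control libraries and 4.71 ± 0.999 FPKM in 3 knockout libraries (mean ± SD) at the early 2-cell stage. In Hes1 and Ddit4l the knockout level was thus higher at the late than at the early stage. Nxf2, an mRNA export factor of germ cells, was at 0.816 and 0.51 FPKM in control and 7.36, 7.48 and 5.48 FPKM in knockout libraries (log2 fold change 2.22, SE 0.22, adjusted p = 0.000342). Nxf2 passed the filter through the knockout libraries alone, so it had to be higher there and its values are a description. Tceal9 was at 0 and 1.49 FPKM in control and 7.26, 12.3 and 6.23 FPKM in knockout libraries (log2 fold change 2.55, SE 0.41, adjusted p = 0.00218). The pseudogene Zfp353-ps was at 5.44 and 5.67 FPKM in control and 40.9, 34.5 and 42.0 FPKM in knockout libraries (log2 fold change 2.61, SE 0.13, adjusted p = 4.83e-05). Another pseudogene, Vmn2r-ps61, was at 4.78 and 2.14 FPKM in control and 23.8, 14.6 and 16.5 FPKM in knockout libraries (log2 fold change 2.15, SE 0.29, adjusted p = 0.00107).

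**Figure D4:**
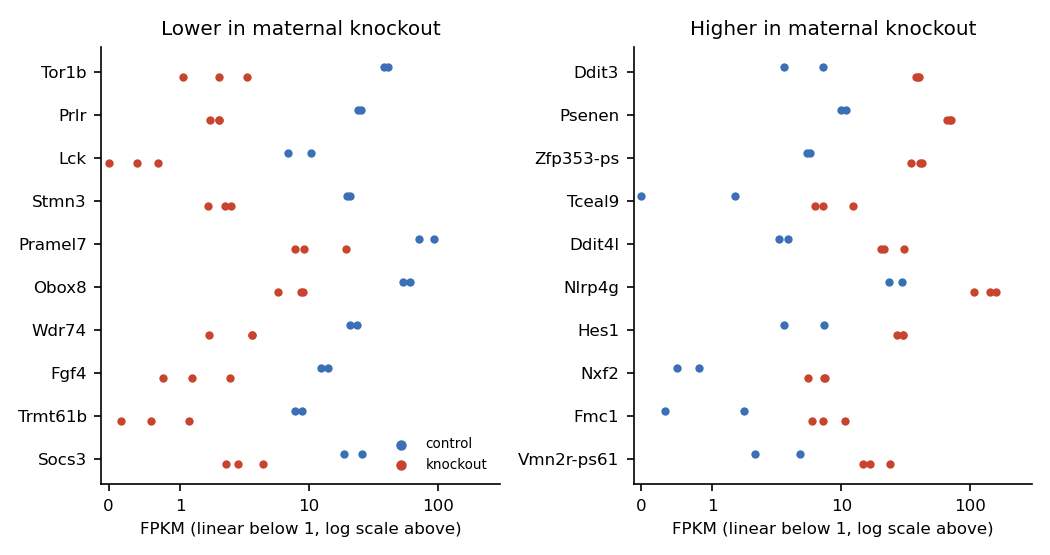
FPKM of each library for the 10 genes furthest below control (left) and the 10 furthest above control (right), with control libraries in blue and knockout libraries in red, on an axis that is linear below 1 and logarithmic above. In all 20 genes the 2 blue points lie on one side of the 3 red points, from 37.7 and 40.4 against at most 3.29 FPKM for Tor1b to 3.57 and 7.16 against at least 37.9 FPKM for Ddit3.

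The knockout effects of both 2-cell stages were compared with an interaction over their 11 libraries, the control libraries of the stages being separate. Over 14051 genes, 2346 (16.7%) had a knockout effect that differed between the stages, 1238 (8.81%) toward higher and 1108 (7.89%) toward lower at the late stage. At the early 2-cell stage alone 1193 of 11780 genes (10.1%) were called. Of the 20 genes of the naming rule and Bap1, 19 had such a difference. The 20 were chosen for a large late 2-cell difference, which this contrast contains, so their count and values are a description. The exceptions were Prlr, with -0.03 (SE 0.29, adjusted p = 0.966), and Pramel7, with -0.24 (SE 0.40, adjusted p = 0.738), which had lower knockout values at both stages. For Tor1b the difference was -3.60 (SE 0.36, adjusted p = 0.000224), for Psenen 2.66 (SE 0.21, adjusted p = 6.24e-05), and for Hes1 2.51 (SE 0.59, adjusted p = 0.0137). Among the group examples, Nop56 had -1.81 (SE 0.22, adjusted p = 0.000501), Zscan4c 3.25 (SE 0.47, adjusted p = 0.00125), Zfp352 3.15 (SE 0.38, adjusted p = 0.000501), Nlrp4f 1.97 (SE 0.13, adjusted p = 4.42e-05) and Duxf3 -1.12 (SE 0.34, adjusted p = 0.0451). The calls of Duxf3 and Wdr74 in this contrast were lost with TPM scaling and with a pseudocount of 0.1, that of Obox8 was lost with TPM scaling and its direction turned with that pseudocount (0.47), and those of Fgf4, Stmn3 and Trmt61b with that pseudocount. Zfp352 was below control at the early stage and above control at the late stage.

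**Figure D5:**
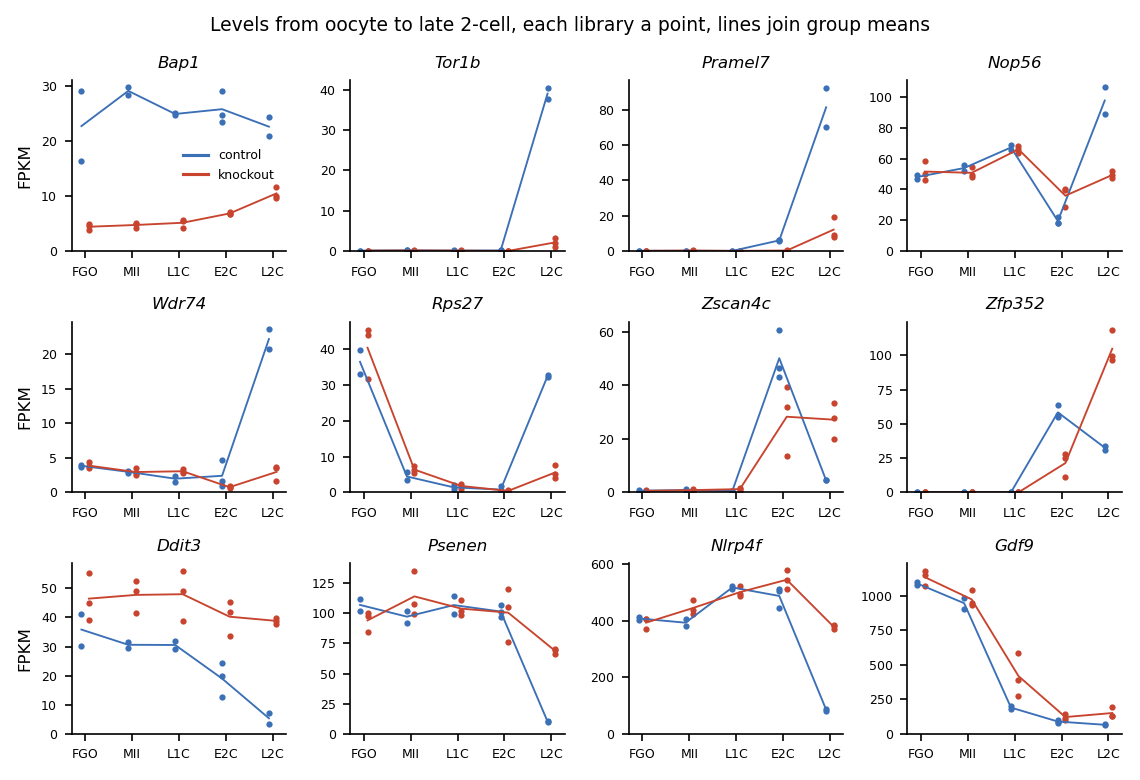
FPKM of 12 genes in every total RNA library by stage (FGO, full-grown oocyte; MII, egg; L1C, late 1-cell; E2C, early 2-cell; L2C, late 2-cell), control in blue and knockout in red, with lines joining group means on linear axes that start at 0. Tor1b, Pramel7, Wdr74 and Rps27 have higher control means at L2C than at E2C, and at L2C their knockout points lie below the control points. Zscan4c, Psenen, Ddit3 and Nlrp4f have lower control means at L2C than at E2C, and at L2C their knockout points lie above the control points.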

How the data were processed

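Total RNA libraries were made with the SMART-Seq Stranded kit, per the labels' protocols. The authors deposited 1 table of FPKM per gene and library, in which the column names carry the ending rpkm. The submitters' processing notes name the mm10 build, Trim Galore 0.6.6, STAR 2.7.9 and StringTie 2.1.7. The annotation, the filters and the strand setting are not given in the sources used here. FPKM keeps no read number, so depth is unknown, no counting intervals are given, and the 5 libraries limit the precision. Of 55401 identifiers, 54349 are in GENCODE M21 with the same version, which gave biotypes and spans; the share of exonic 50-base words found in other genes was computed from its transcripts.

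Groups come from the titles. Values were tested as log2(FPKM + 1) with limma (3.58.1, R 4.3.3; lmFit and eBayes with trend, two-sided, Benjamini-Hochberg over all genes tested, threshold 0.05), the late 2-cell stage alone, and with an interaction contrast over both 2-cell stages. Lists and stage classes are described by counts and medians. Python 3.11.15 with pandas 2.3.3 and matplotlib 3.10.9 was used for tables and plots, and the scripts were tested on simulated data. With 200 changed genes among 12718 simulated, 25 of 67 genes changed by 1 log2 unit were called. For a change of 2 units 51 of 67 were called, and for 4 units 63 of 66. In the data 4893 genes were called, and the adjustment of p is less strict where more genes differ. The simulated shares therefore do not carry over to the data. A gene that was not called is still not shown to be unchanged. Genes named are the 10 furthest in each direction (called, groups not overlapping, at least 5 FPKM as the mean of the higher group, no predicted, clone or histone names, under 30% shared sequence), Bap1, anchors and the 3 most changed members of each list, and the 3 most abundant called genes of each class. The members and lists were chosen with earlier results of these data known. The alternatives were other scalings, pseudocounts, filters, variance settings, a fold limit, all 26 total RNA libraries, a replicate block and leaving out each library. Counts of members with under 30% shared sequence or a mean of at least 1 FPKM in both groups, 4 further lists and the promoter patterns were chosen after seeing the data.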

Additional observations from a re-analysis of the deposited data

Results flagged for a closer look

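The knockout effect at the late 2-cell stage was set against that at the early 2-cell stage for 26 genes given in the report, and 24 differed in limma's interaction test at an adjusted p under 0.05. Most were chosen for a large late 2-cell difference, which this contrast contains, so their number is a description. Values are the late minus the early difference between knockout and control on the log2(FPKM + 1) scale. The effect moved toward lower knockout levels for Tor1b (-3.60), Lck (-2.73), Stmn3 (-2.63), Fgf4 (-2.49), Trmt61b (-2.17), Socs3 (-1.87), Nop56 (-1.81), Wdr74 (-1.78), Obox8 (-1.35) and Duxf3 (-1.12). It moved toward higher knockout levels for Vmn2r-ps61 (4.20), Zscan4c (3.25), Ddit4l (3.15), Zfp352 (3.15), Tceal9 (2.97), Zfp353-ps (2.92), Psenen (2.66), Nxf2 (2.61), Hes1 (2.51), Fmc1 (2.46), Nlrp4g (2.29), Nlrp4f (1.97), Ddit3 (1.63) and Bap1 (0.73). With a pseudocount of 0.1 the direction of Obox8 turned (0.47). In Bap1 the positive value means a smaller deficit at the late stage.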

How the results depend on the processing

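With no filter on low values 3180 genes were called, 1472 of them higher, and with a limit of 1 on the absolute log2 fold change 1842, of which 800 were higher and 1042 lower. Leaving out 1 library gave 2878 to 4860 calls, 1525 to 2435 higher and 1353 to 2425 lower, the lowest without control replicate 1. With the replicate number as a replicate block 3702 genes were called, 1800 higher and 1902 lower. Same-numbered libraries deviated from their group means with correlations of 0.035 and 0.017. The deviations of 2 control libraries mirror each other, so these values cannot tell whether same-numbered libraries shared a litter or batch. The block changed 1 call among the genes named besides Bap1, that of mt-Cytb. Bap1 stayed lower and called in every setting, with log2 fold changes of -0.94 to -1.15 when 1 library was left out. All 26 total RNA libraries together gave 4622 genes whose effect differed between the 2-cell stages. In that contrast Obox8 reversed with a pseudocount of 0.1 (0.47), Pramel7 and Prlr, neither of them called, with TPM scaling (0.73 and 0.17) and with that pseudocount (1.46 and 0.21). The cause was not tested. Of 117 other genes given with values, none reversed at the late 2-cell stage, and 4 (Duxf3, Npm1, Nr5a2 and mt-Cytb) lost their call in at least 1 setting, the fold limit aside. Depth is unknown, so a level near 0 cannot be given a detection limit.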

Other observations

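Gene groups picked after values had been seen add to the description and are given as values alone. Of 14 Nlrp genes tested 10 were higher and 1 lower, with a median log2 fold change of 1.18. The lower one, Nlrp12, was not called with TPM scaling or without any 1 of the 5 libraries. Nlrp9b was at 9.57 and 8.42 FPKM in control and 31.0, 32.6 and 33.99 FPKM in knockout libraries (log2 fold change 1.75, SE 0.12, adjusted p = 0.00013). Of 26 genes of mitochondrial protein import 15 were lower and none higher (median -0.71), with 5 lower and 1 higher without control replicate 1 and 8 lower without control replicate 2, and 0 higher at an unadjusted p under 0.05 in limma. Tomm5, a small subunit of the outer membrane translocase, was at 24.1 and 35.5 FPKM in control and 4.79, 4.19 and 4.55 FPKM in knockout libraries (log2 fold change -2.46, SE 0.19, adjusted p = 0.000152). Of 18 aminoacyl-tRNA synthetase genes 7 were lower and 2 higher, with 4 lower without control replicate 2 and 1 higher without control replicate 1, control replicate 2, knockout replicate 2 or knockout replicate 3. Hars, which charges histidine tRNA, was at 13.6 and 14.7 FPKM in control and 2.93, 3.27 and 2.79 FPKM in knockout libraries (log2 fold change -1.92, SE 0.17, adjusted p = 0.000234). Of 12 genes that respond to unfolded protein or lack of amino acids 5 were lower and 1, Ddit3, was higher, with 2 lower without control replicate 1 and 3 without knockout replicate 3. Psat1, of serine synthesis, was at 22.0 and 21.0004 FPKM in control and 10.9, 10.3 and 10.3 FPKM in knockout libraries (log2 fold change -0.97, SE 0.12, adjusted p = 0.000864), so Ddit3 differed in direction from the other called members.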
